A study of Mus musculus with 51 samples.

Results

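The genes of the Polycomb complexes were followed in mouse embryonic stem cells (mESCs) that either had or had not received the chromatin protein SMCHD1 from the oocyte. A fixed list of 35 genes was used, holding the core and accessory subunits of Polycomb repressive complexes 1 and 2 (PRC1 and PRC2) and of the Polycomb deubiquitinase PR-DUB. All 35 were found, once each, among the 35591 genes of the count table, and 35 of 35 passed the expression filter that left 17696 genes to test. The cells were 6 male C57BL/6 x Cast F1 lines grown in 2i + LIF, the pair of kinase inhibitors and the cytokine that hold mESCs in a naive state, and polyA RNA was sequenced from each. Of these, 3 lines were Smchd1 fl/+ controls (wt) from mothers with floxed Smchd1; whether these mothers carried the Cre transgene is not given clearly in the sources used here. The other 3 were maternal null lines (mat del), Smchd1 del/+, from Smchd1 fl/fl mothers with Zp3-Cre, a transgene active in the growing oocyte. Both kinds of line kept the paternal Smchd1 allele, so the mat del lines model the loss of the oocyte supply and of 1 embryonic copy together, and each line came from a separate blastocyst.

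PRC2 methylates lysine 27 of histone H3 through EZH1 or EZH2, held in a core with EED, SUZ12 and a histone-binding RBBP protein, and its accessory subunits direct it to chromatin. PRC1 ubiquitinates lysine 119 of histone H2A through RING1 or RNF2 (RING1B), each of which pairs with one of the PCGF proteins. In canonical PRC1 a CBX protein reads the PRC2 mark and a PHC protein joins complexes into larger assemblies, whereas variant PRC1 carries RYBP or its paralog YAF2 in place of CBX. In naive mESCs these complexes hold developmental regulators silent, and many of their positions can be taken by alternative paralogs. Bulk RNA levels cannot tell fewer cells that use a gene from less RNA in each cell.

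Total counts were 27526359 to 126716460 per wt line and 36793712 to 118938718 per mat del line. Smchd1, the targeted gene, was measured at 107, 124 and 119 CPM (reads per 1000000 counted, scaled by TMM) in the wt lines and at 63.7, 71.99 and 90.7 CPM in the mat del lines, with no overlap and a log2 fold change of -0.63 (95% interval -0.96 to -0.30; edgeR quasi-likelihood, unadjusted p = 0.00231, adjusted p = 0.992). All 12 naive pluripotency markers were detected, with Pou5f1 at 735 to 1060 CPM and Nanog at 681 to 895 CPM, while the fibroblast gene Col1a1 stayed at or under 0.84 CPM in every line. Among the 8 fibroblast markers 7, with Col1a1, stayed under 1 CPM in every line. The remaining one, Thy1, measured 1.44, 1.63 and 4.995 CPM in the wt lines and 1.86, 0.85 and 1.60 CPM in the mat del lines. Of the 8 trophoblast markers, Cdx2 was at or under 0.15 CPM and 3 more were under 1 CPM in every line, while Eomes, Krt7, Plet1 and Ascl2 were detected at 4.76 to 25.3 CPM. The summed level of the naive markers was 4095 to 4516 CPM per line, that of the primed markers 136 to 173 CPM, that of the trophoblast markers 47.2 to 67.1 CPM and that of the fibroblast markers 1.52 to 6.25 CPM. Within these lists the naive factors Klf4, Prdm14 and Tbx3 were higher in every mat del line than in any wt line. Klf4 measured 118, 126 and 108 CPM in the wt lines and 145, 145 and 146 CPM in the mat del lines. Primed Dnmt3b (40.1, 44.8 and 79.1 CPM and 37.9, 28.7 and 34.5 CPM) and trophoblast Ascl2 were lower in every mat del line. Of all genes tested, 9.38% did not overlap between genotypes. By sign 8 naive markers were higher and 4 lower in the mat del lines, and the median over the list was 0.051 on the log2 scale. Those going down included Nr0b1 (-0.29), Zfp42 (-0.19) and Pou5f1 (-0.18). For the primed markers the split was 2 higher and 4 lower, with Otx2 and Zic2 higher, and the median was -0.066. In all, 0 markers passed the test. The markers are named after their values were seen, and their part in the results was not tested. The lines numbered 3 stood apart in both genotypes. Over 13929 genes with a mean above 1 CPM, the median absolute log2 deviation from the 6-line mean was 0.156 in wt line 3 and 0.247 in mat del line 3, against 0.089 to 0.113 in the other 4. The summed primitive endoderm markers, most of the sum being Lama1, were at 79.7, 88.4 and 93.756 CPM in the wt lines. In the mat del lines they were at 93.775, 94.3 and 151 CPM, with line 3 farthest out. By sign 7 of these 8 markers were higher and 1 lower in the mat del lines, with a median of 0.31 on the log2 scale. For 0 of them taken singly did the genotypes not overlap. Gata4, Gata6, Sox17 and Foxa2 are also in the list of Polycomb targets used below. The part of these markers in the results was not tested.

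The level of each member, its CPM per kilobase (kb) of annotated exon (the union of all its exons unless another length is named), placed most Polycomb genes among the well expressed genes of the cell. Of the 35 members, 27 had a level above the median of the genes tested, which was 3.40 CPM per kb, and 8 lay in the top 10% of genes. The members ranged from 129 CPM per kb for Suz12 to 0.0262 CPM per kb for Auts2. This order of levels is a description of transcripts in these lines and does not measure protein.

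**Figure D1:**
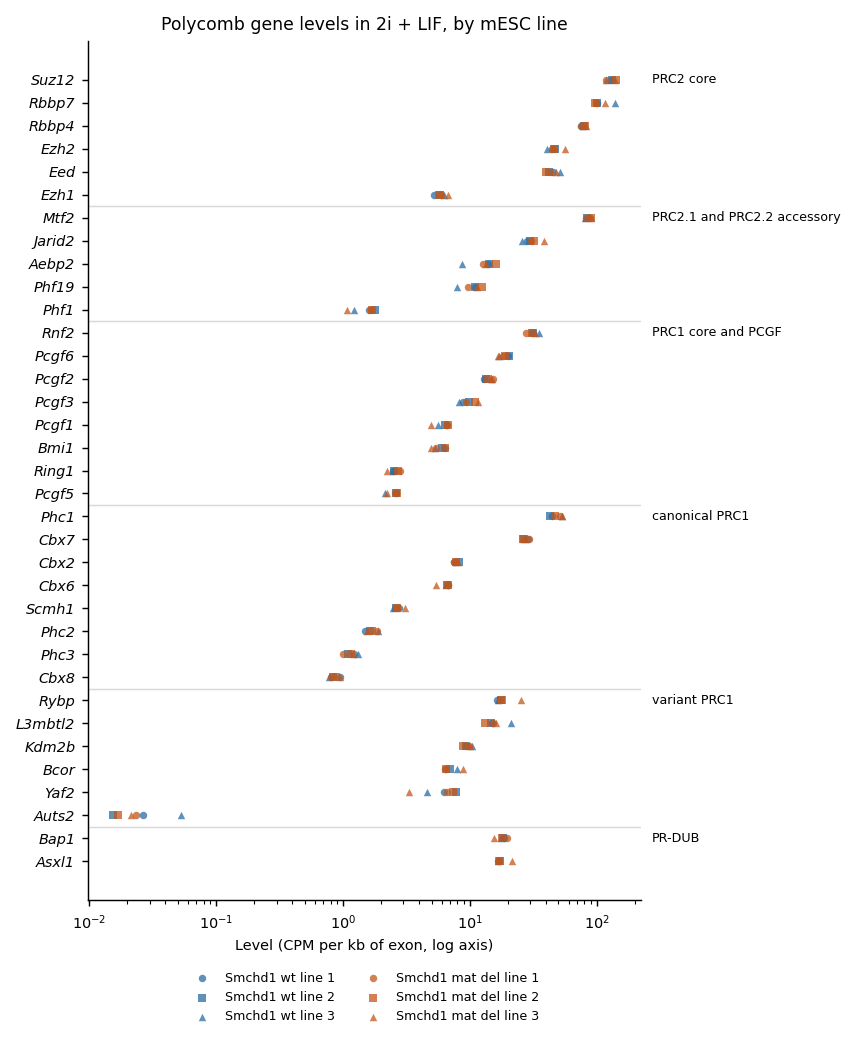
Level of each of the 35 Polycomb genes (CPM per kb of exon, log axis), grouped by complex; blue marks are the 3 wt lines and orange marks the 3 mat del lines, with circles, squares and triangles for lines 1, 2 and 3. PRC2 core genes other than Ezh1 lie near the top of the range, Auts2 lies far below all others, and the 2 colours are intermixed for nearly every gene.

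Per kb of exon union the PRC2 core held the 2 highest levels. SUZ12, the scaffold of the complex, stood at 129 ± 10.2 CPM per kb (mean ± SD, n = 6 lines), the highest of the members, although per kb of the longest transcript Rbbp4 was slightly above it, at 148 against 146 CPM per kb. The histone-binding subunits followed at 109 ± 16.2 for Rbbp7 and 78.8 ± 3.08 for Rbbp4. Ezh2 (chr6:47530139-47595341, minus strand, GRCm38), the main methyltransferase of dividing cells, was at 46.7 ± 5.36 CPM per kb, close to Eed, whose product binds methylated H3 and stimulates the enzyme, at 44.6 ± 4.17 CPM per kb. Ezh1 (chr11:101191115-101226463, minus strand), the less active methyltransferase, was the low member of the core at 5.96 ± 0.517 CPM per kb.

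Of the 30 members with an entry in the RefSeq promoter table (GRCm38.p6, 250 bases before to 50 after the start, the outermost start where a gene had several), 26 had at least 15 CpG dinucleotides in the 300 bases. Among the 12303 tested genes with an entry, 65.3% reached that number, and 35.2% of all 27025 genes did. The Ezh2 and Ezh1 promoters are shown because this is the enzyme pair of the complex and because both are rich in CpG, with 31 and 23 of them, although the transcripts differ several-fold in level. Both lie on the minus strand, at chr6:47594981-47595280 for Ezh2 and chr11:101226414-101226713 for Ezh1, and capitals mark each CpG.
Ezh2: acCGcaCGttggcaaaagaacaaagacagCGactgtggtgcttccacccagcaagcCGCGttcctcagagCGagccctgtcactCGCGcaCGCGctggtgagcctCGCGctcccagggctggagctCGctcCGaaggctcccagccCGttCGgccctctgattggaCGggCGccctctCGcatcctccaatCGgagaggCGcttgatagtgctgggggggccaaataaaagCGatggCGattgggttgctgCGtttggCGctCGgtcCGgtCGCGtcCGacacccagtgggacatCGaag
Ezh1: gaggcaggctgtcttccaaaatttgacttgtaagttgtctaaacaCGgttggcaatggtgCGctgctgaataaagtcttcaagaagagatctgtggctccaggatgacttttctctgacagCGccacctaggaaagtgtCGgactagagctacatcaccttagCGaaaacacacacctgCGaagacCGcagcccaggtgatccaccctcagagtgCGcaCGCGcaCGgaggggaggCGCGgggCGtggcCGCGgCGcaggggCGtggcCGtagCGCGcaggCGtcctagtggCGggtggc
The letters TTTGGCGC, TTTCCCGC, TTTGCCGC and TTTCGCGC, forms of the site known for E2F cell-cycle factors, were searched on both strands. Any of them occurred in 3 of the 30 members, Ezh2, Phf19 and Suz12, and in 3.96% of the tested genes with an entry. A match of letters is a description and does not show that a factor binds there.

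The paralogs of each family were then ordered by level. The 35 genes hold 31 pairs of paralogs in 8 families, and in all 31 the same gene was the higher one in 6 of 6 lines (exact two-sided sign-flip test over lines, p = 0.03125 for each pair, which is the smallest that 6 lines can give; adjusted over the 31 pairs, p = 0.03125). That test takes the 6 lines as independent, although some lines of the 2 genotypes deviated together. Over the 3 means of same-numbered lines the smallest p that an exact sign-flip test can give is 0.25. That version could pass 0 of the 31 pairs whatever the values, so it decides nothing about the order. The order itself was set from the same 6 lines. Every pair gave p = 0.03125 over 6 lines (exact sign-flip test), whether 1.07-fold or 57.9-fold apart. This p therefore shows only that the lines agreed in the sign of the ratio. A ratio between genes also rests on the exon length it is divided by, and an error in that length is shared by all lines and is not in the p. For 22 of the 31 pairs the order was the same in every line with the union of exons, the longest transcript and the median transcript, and the other 9 are named below as uncertain. The size of a ratio depended more on the length than its direction did: it moved by over 1.5 times for 4 pairs with the longest and for 23 with the median transcript, which can be a short one, so both values follow each fold.

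In PRC2, Ezh2 exceeded Ezh1 by 7.82-fold (range 6.38 to 8.49 over 6 lines, 10.6 with the longest and 6.64 with the median transcript), and the mean ratio of the 3 wt lines differed from that of the 3 mat del lines by 0.088 on the log2 scale. Mtf2, the Polycomb-like subunit that binds CpG-rich DNA, exceeded its paralog Phf19 by 8.22-fold (range 7.25 to 10.2 over 6 lines, 8.56 with the longest and 10.5 with the median transcript) and Phf1 by 57.9-fold (range 47.1 to 83.3 over 6 lines, 73.2 with the longest and 122 with the median transcript). The level of Phf1 is uncertain, because 39.3% of its exon bases are shared with Cuta on the opposite strand, which has 555% of the counts of Phf1, and the strand setting of the counting was not given in the sources used here. The order of Rbbp7 and Rbbp4 is also uncertain: per kb of exon union Rbbp7 was higher by 1.37-fold (range 1.20 to 1.76 over 6 lines, 0.945 with the longest and 0.816 with the median transcript), so that Rbbp4 was the higher one with either transcript length.

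In PRC1, Rnf2 was the dominant ubiquitin ligase transcript and exceeded Ring1 by 12.4-fold (range 9.80 to 14.6 over 6 lines, 12.6 with the longest and 39.3 with the median transcript). The levels were 31.5 ± 2.45 and 2.54 ± 0.200 CPM per kb. Among the CBX readers the order per kb of exon union was Cbx7, Cbx2, Cbx6 and Cbx8, at 27.3 ± 1.32, 7.81 ± 0.291, 6.46 ± 0.497 and 0.865 ± 0.0690 CPM per kb. Cbx7 exceeded Cbx2 by 3.50-fold (range 3.17 to 3.89 over 6 lines, 3.35 with the longest and 17.1 with the median transcript) and Cbx8 by 31.5-fold (range 27.5 to 35.8 over 6 lines, 32.9 with the longest and 61.9 with the median transcript). The order of Cbx2 and Cbx6 is uncertain, with a ratio of 1.21-fold (range 1.11 to 1.47 over 6 lines, 1.002 with the longest and 0.167 with the median transcript), so that Cbx6 was the higher one with the median transcript.

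In the Polyhomeotic family 1 gene stood far above the others. Phc1, long known as a stem cell member of the family, stood at 48.6 ± 4.61 CPM per kb, and exceeded Phc2 by 28.8-fold (range 25.8 to 34.4 over 6 lines, 20.2 with the longest and 6.27 with the median transcript) and Phc3 by 41.6-fold (range 36.1 to 50.6 over 6 lines, 32.8 with the longest and 12.1 with the median transcript). Phc2 and Phc3 lay closer together, at 1.69 ± 0.162 and 1.17 ± 0.110 CPM per kb. Scmh1, a further canonical subunit related to Drosophila Sex comb on midleg, was at 2.71 ± 0.206 CPM per kb.

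The PCGF subunits, which define the PRC1 subtypes, were spread over a narrower range than the CBX or PHC genes. Pcgf6, of the germline-gene-repressing PRC1.6 complex, was highest per kb of exon union, at 18.5 ± 1.48 CPM per kb. Pcgf2 (Mel18), used in canonical PRC1, was at 14.3 ± 0.920 CPM per kb and its paralog Bmi1 (Pcgf4) at 5.75 ± 0.625 CPM per kb. Between them lay Pcgf3 at 9.83 ± 1.25 and Pcgf1, the partner of KDM2B, at 6.16 ± 0.718 CPM per kb, and Pcgf5 was lowest at 2.48 ± 0.221 CPM per kb. Pcgf1 and Bmi1 were neighbours with a ratio of 1.07-fold (range 1.01 to 1.22 over 6 lines, 1.74 with the longest and 0.353 with the median transcript). With the median transcript Pcgf3 was highest and Pcgf1 lowest of the family, at 136 and 15.5 CPM per kb. The order is uncertain for 7 pairs, whose 6-line mean or at least 1 line turned with another transcript length, namely Pcgf6 with Pcgf3 and with Bmi1, Pcgf2 with Pcgf3 and with Bmi1, Pcgf1 with Pcgf3, with Bmi1 and with Pcgf5.

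Among the variant PRC1 subunits Rybp was highest per kb of exon union, at 18.5 ± 3.33 CPM per kb, while per kb of the longest transcript L3mbtl2 and Kdm2b were slightly above it, at 20.3 and 20.2 against 19.5 CPM per kb. Rybp exceeded Yaf2 by 3.19-fold (range 2.28 to 7.65 over 6 lines, 3.35 with the longest and 21.1 with the median transcript), the widest range over lines of any pair, and the highest ratio was that of mat del line 3. Kdm2b, whose product recruits PRC1 to unmethylated CpG islands, was at 9.61 ± 0.560 CPM per kb, and L3mbtl2 of PRC1.6 was at 15.8 ± 2.71 CPM per kb. Of its exon bases, 17.2% are shared with Chadl on the opposite strand, and members other than Phf1 and L3mbtl2 shared at most 9.10% of exon bases with any one gene. Bcor, the PRC1.1 corepressor, was at 7.19 ± 0.976 CPM per kb. Auts2, best known from neural PRC1, had only 17 to 65 counts per line, so its values are imprecise. The PR-DUB genes Bap1, the H2A deubiquitinase, and Asxl1, its cofactor, had nearly equal levels per kb of exon union, 17.9 ± 1.35 and 17.7 ± 1.95 CPM per kb. With the longest transcript Bap1 was at 21.8 and Asxl1 at 18.9 CPM per kb. With the median transcript they were at 113 and 184 CPM per kb, so the near equality depends on the length used.

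**Figure D2:**
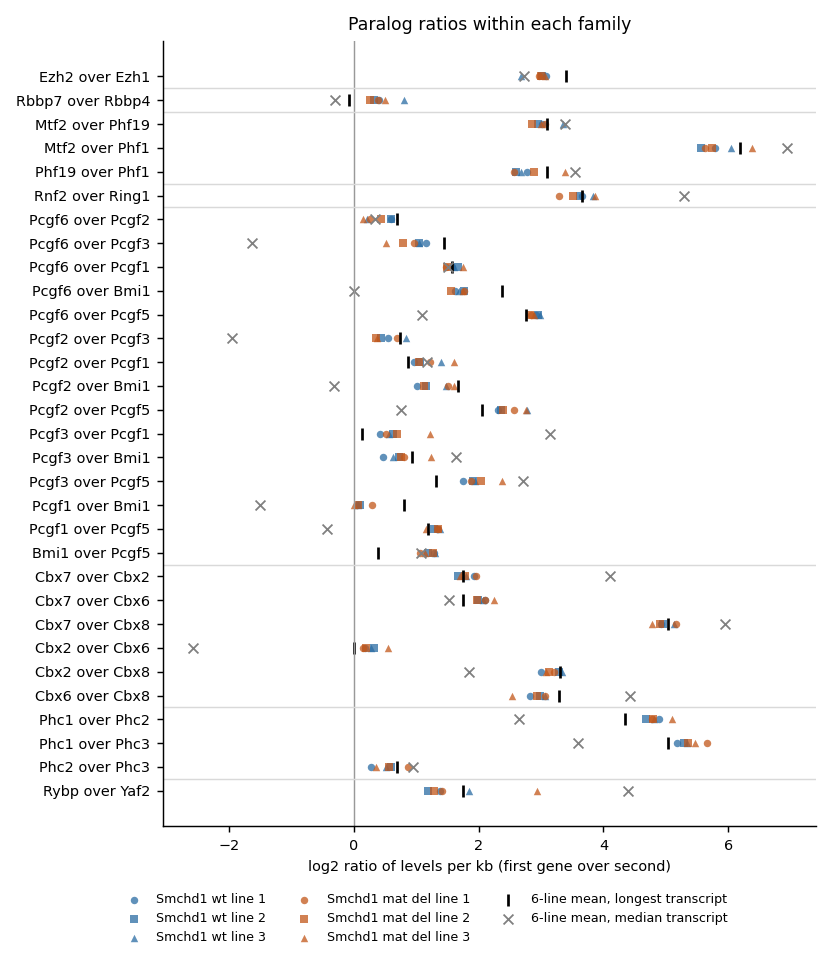
log2 ratio of levels per kb for the 31 paralog pairs, the gene with the higher mean level first; coloured marks are the 6 lines (exon union), black bars and grey crosses the 6-line means with the longest and the median transcript length. All coloured marks lie to the right of 0, the crosses lie to the left for 7 pairs and the black bar for 1, and Mtf2 over Phf1 and Phc1 over Phc3 have the largest ratios.

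The main comparison asked whether the Polycomb genes differed between wt and mat del mESCs. With edgeR's quasi-likelihood test, 0 of 17696 genes passed an adjusted p of 0.05 (0% called), and 0 of the 35 members did. At an unadjusted p under 0.05 there were 397 genes (2.24%) and 0 members. DESeq2 also called 0 genes, with 460 at an unadjusted p under 0.05 (2.6%), and edgeR's exact test called 2 genes (0.0113%), Magel2 and Gemin5, named here after their values were seen, and 0 members. Leaving out line 3 of both genotypes, an alternative chosen after seeing the data, gave 3 called genes (0.0163%), Smchd1, Gemin5 and Xlr3c, and still 0 members.

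The estimates for the members were small and had narrow intervals. The log2 fold change (mat del minus wt) was above 0 for 19 members and below 0 for 16, with a median of 0.020, beside -0.009 for all genes tested. Its absolute value was under 0.3 for 34 of 35 members, and for 79.3% of all genes tested. The 95% interval lay within a 2-fold change either way for 34 members, all but Auts2, and within 1.5-fold for 30. For comparison, 74.5% of all genes tested had an interval within 2-fold. Differences smaller than the intervals were not detectable with 3 lines per genotype. In data simulated from the depths, mean levels and dispersions of these libraries the changed genes were drawn at random from all genes tested. Counts were drawn independently for each gene and line, so deviations that lines share were not simulated. The test called 0% of those changed 1.5-fold, 47.5% of those changed 2-fold and 87.0% of those changed 4-fold. The median standard error of the log2 fold change was 0.123 over the members and 0.197 over all genes tested, so these rates are not those of the members.

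**Figure D3:**
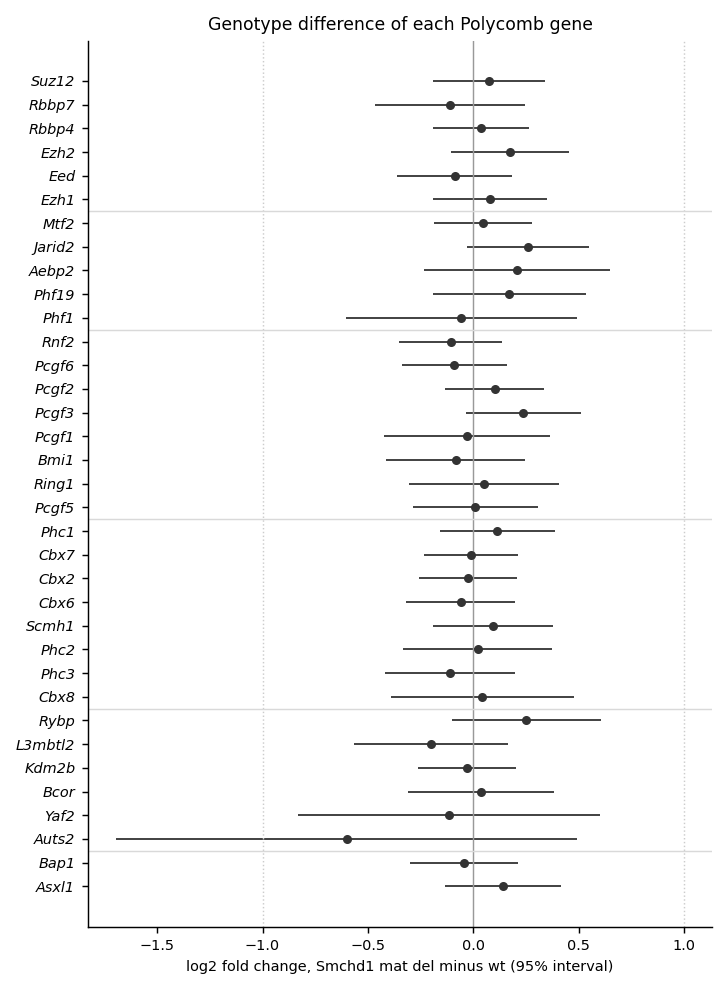
Fitted log2 fold change (mat del minus wt) of each Polycomb gene with its 95% interval, grouped by complex; dotted lines mark a 2-fold change either way. Every interval includes 0, that of Auts2 is the widest and reaches past the left dotted line, and Jarid2 and Pcgf3 come nearest to excluding 0.

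Jarid2 (chr13:44729474-44921643, plus strand, GRCm38), the PRC2.2 subunit that recognises ubiquitinated H2A, was the single member whose groups did not overlap, with the mat del lines higher. Over all genes tested 9.38% did not overlap, 4.7% with the mat del lines higher and 4.68% with them lower. It measured 275, 291 and 249 CPM in the wt lines and 292, 309 and 374 CPM in the mat del lines. All 3 mat del values were above the highest wt value, but mat del line 1 exceeded wt line 2 by little and mat del line 3 was the farthest out. The log2 fold change was 0.26 (95% interval -0.031 to 0.55; edgeR quasi-likelihood, unadjusted p = 0.0736, adjusted p = 0.992), and it ran from 0.15 to 0.34 with each line left out in turn and was 0.087 without line 3 of both genotypes.

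Of the 5 genes of the PRC2 accessory module, Jarid2 among them, 4 were higher and 1 lower in the mat del lines by sign. The median of their log2 fold changes was 0.17. The lower one was Phf1, whose level is uncertain, with a log2 fold change of -0.056 (95% interval -0.61 to 0.49). Aebp2, the second PRC2.2 subunit, measured 136, 138 and 85.4 CPM in the wt lines and 126, 158 and 131 CPM in the mat del lines. Its low value was that of wt line 3, and the groups overlapped. The log2 fold change was 0.21 (95% interval -0.24 to 0.65), and 0.012 without wt line 3. Phf19 showed the same low wt line 3, with 55.4, 54.97 and 39.9 CPM against 49.2, 63.02 and 57.03 CPM, and Mtf2 differed little, with 506, 481 and 461 CPM against 466, 516 and 513 CPM. The log2 fold changes were 0.17 (95% interval -0.19 to 0.53), or 0.032 without wt line 3, and 0.047 (95% interval -0.18 to 0.28).

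Within the PRC2 core the highest estimate was that of Ezh2. It measured 295, 315 and 269 CPM in the wt lines and 309.5, 306 and 377 CPM in the mat del lines, a log2 fold change of 0.17 (95% interval -0.11 to 0.45). It was 0.070 without mat del line 3 and 0.011 without line 3 of both genotypes. Mat del line 3 alone lay above every wt line, and the other 2 mat del lines lay between wt lines 1 and 2. Its paralog Ezh1 measured 38.7, 43.6 and 46.99 CPM against 44.2, 42.7 and 49.98 CPM, with the log2 fold change at 0.079 (95% interval -0.19 to 0.35). Suz12 measured 639, 649 and 582 CPM against 582, 697 and 691 CPM and Eed 173, 159.8 and 195 CPM against 163, 151 and 182 CPM. For Suz12 the log2 fold change was 0.075 (95% interval -0.19 to 0.34) and for Eed it was -0.089 (95% interval -0.36 to 0.18). Rbbp4 was the steadiest core gene, at 657, 696 and 688 CPM and 659.8, 712 and 723 CPM, whereas X-linked Rbbp7 reached 402 CPM in wt line 3 and 339.9 CPM in mat del line 3 but was between 284 and 291 CPM in the other 4 lines.

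For the PRC1 core and PCGF genes the log2 fold changes ran from -0.11 for Rnf2 to 0.24 for Pcgf3. Rnf2 measured 130.3, 130.1 and 144 CPM in the wt lines and 113, 128 and 135 CPM in the mat del lines, and Ring1 measured 8.07, 8.26 and 7.997 CPM and 9.09, 8.80 and 7.25 CPM. The ranges overlapped for both. Pcgf3, found in the variant PRC1.3 complex, measured 84.8, 94.3 and 79.04 CPM against 89.7, 104 and 111 CPM. Mat del lines 2 and 3 were above every wt line and mat del line 1 was not; the log2 fold change was 0.24 (95% interval -0.036 to 0.51; edgeR quasi-likelihood, unadjusted p = 0.0805), and 0.11 without line 3 of both genotypes. Without mat del line 1 the unadjusted p was 0.0347 for Pcgf3 and 0.0492 for Jarid2, with the adjusted p at 0.829 for both (edgeR quasi-likelihood); at that setting 639 of 17158 genes (3.72%) had an unadjusted p under 0.05.

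Canonical PRC1 genes had log2 fold changes from -0.11 for Phc3 to 0.11 for Phc1. Cbx7 measured 186, 169 and 178 CPM in the wt lines and 188, 172 and 169 CPM in the mat del lines, with the log2 fold change at -0.011 (95% interval -0.23 to 0.21). Cbx2 measured 32.1, 35.03 and 33.4 CPM and 31.8, 32.9 and 34.2 CPM, with the log2 fold change at -0.026 (95% interval -0.26 to 0.21). The lines of the 2 genotypes were intermixed for both. Phc1 measured 235, 225 and 282 CPM and 271, 250.4 and 282 CPM, and the high values were wt line 3 and mat del lines 1 and 3. Its unadjusted p was 0.364 (edgeR quasi-likelihood) and became 0.0268 without line 3 of both genotypes, with an adjusted p of 0.998, where 870 of 18444 genes (4.72%) had an unadjusted p under 0.05. The low Cbx8 stayed at 3.46, 3.08 and 2.85 CPM and 2.97, 3.24 and 3.47 CPM.

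The 2 widest intervals were those of the variant PRC1 genes Auts2 and Yaf2. Rybp measured 78.01, 83.7 and 78.7 CPM in the wt lines and 82.5, 84.5 and 119.6 CPM in the mat del lines. Only mat del line 3 stood apart, and the log2 fold change was 0.25 (95% interval -0.10 to 0.60), or 0.059 without that line. Yaf2 went the other way in that line, with 11.8, 14.5 and 8.65 CPM against 12.3, 13.7 and 6.16 CPM and a log2 fold change of -0.12 (95% interval -0.83 to 0.60). L3mbtl2 was high in wt line 3, at 89.1, 88.00 and 125 CPM in the wt lines and 90.01, 77.9 and 95.1 CPM in the mat del lines, with the log2 fold change at -0.20 (95% interval -0.57 to 0.17), or -0.015 without wt line 3. Auts2 had the estimate farthest from 0, -0.60 (95% interval -1.69 to 0.49), from values of 0.612, 0.353 and 1.22 CPM against 0.538, 0.387 and 0.487 CPM. That estimate rested on wt line 3, and without it the log2 fold change was 0.048.

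In PR-DUB, Asxl1 measured 123, 129 and 124 CPM in the wt lines and 127, 127 and 161 CPM in the mat del lines, while Bap1 measured 86.4, 86.01 and 83.03 CPM and 91.4, 84.2 and 72.4 CPM. Mat del line 3 was the farthest line for both, above the rest for Asxl1 and below the rest for Bap1. Neither gene passed the test, and the log2 fold change of Asxl1 was 0.14, or 0.016 without that line. The other 12 members (Bcor, Bmi1, Cbx6, Cbx8, Kdm2b, Pcgf1, Pcgf2, Pcgf5, Pcgf6, Phc2, Phf1 and Scmh1) had log2 fold changes between -0.089 and 0.10.

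The ratios between paralogs were compared between genotypes as well, since a shift in subunit use need not change either gene much. The median absolute difference in mean log2 ratio between mat del and wt was 0.12 over the 31 pairs, and for 28 pairs it was under 0.3. The pairs with the largest differences were Rybp over Yaf2 at 0.40, Pcgf3 over Bmi1 at 0.33 and Pcgf6 over Pcgf3 at -0.32. The exact permutation test of 3 lines against 3 cannot give a p under 0.1, and 4 pairs reached that value, namely Pcgf6 over Pcgf3, Pcgf6 over Pcgf5, Pcgf3 over Bmi1 and Phc1 over Phc3. After adjustment over 31 pairs the smallest exact p was 0.775, so no difference in paralog use was detectable at this number of lines.

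The lines numbered 3 held the outer values of most members. The farthest of the 6 lines from their mean was mat del line 3 for 16 members and wt line 3 for 9. For 17 of the 35 members (48.6%) both lines numbered 3 lay outside the other 4 lines on the same side, and so did the lines numbered 3 for 38.8% of all genes tested. The corresponding count was 4 members for lines numbered 1, beside 15% of all genes tested, and 7 members for lines numbered 2, beside 12.2%. In both lines numbered 3, 8 members were highest (Ezh1, Eed, Rbbp7, Rnf2, Phc1, Kdm2b, Bcor and L3mbtl2) and 9 were lowest (Phf1, Ring1, Pcgf1, Bmi1, Pcgf5, Pcgf6, Cbx6, Yaf2 and Bap1). Line numbers are only labels here, and whether lines of one number shared a day or a library preparation was not given in the sources used here.

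For some members line 3 lay on the same side in both genotypes. Bcor measured 55.1, 60.8 and 68.3 CPM in the wt lines and 56.6, 56.4 and 76.5 CPM in the mat del lines, with line 3 highest in both. Pcgf5 measured 33.2, 33.1 and 27.3 CPM and 32.4, 33.6 and 28.2 CPM, with line 3 lowest in both. Pcgf6 followed the same pattern, at 99.7, 102 and 85.9 CPM and 92.1, 95.1 and 83.6 CPM. By contrast Ezh2, Jarid2 and Pcgf3 had their lowest value in wt line 3 and their highest in mat del line 3. The median spread within a genotype (pooled SD of log2 CPM) was 0.139 for the 31 members above 10 CPM and 0.168 for all 9514 tested genes above 10 CPM. The lowest spread was that of Cbx2 at 0.0578, followed by Rbbp4 at 0.0591, and among members above 1 CPM that of Yaf2 was highest at 0.516.

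**Figure D4:**
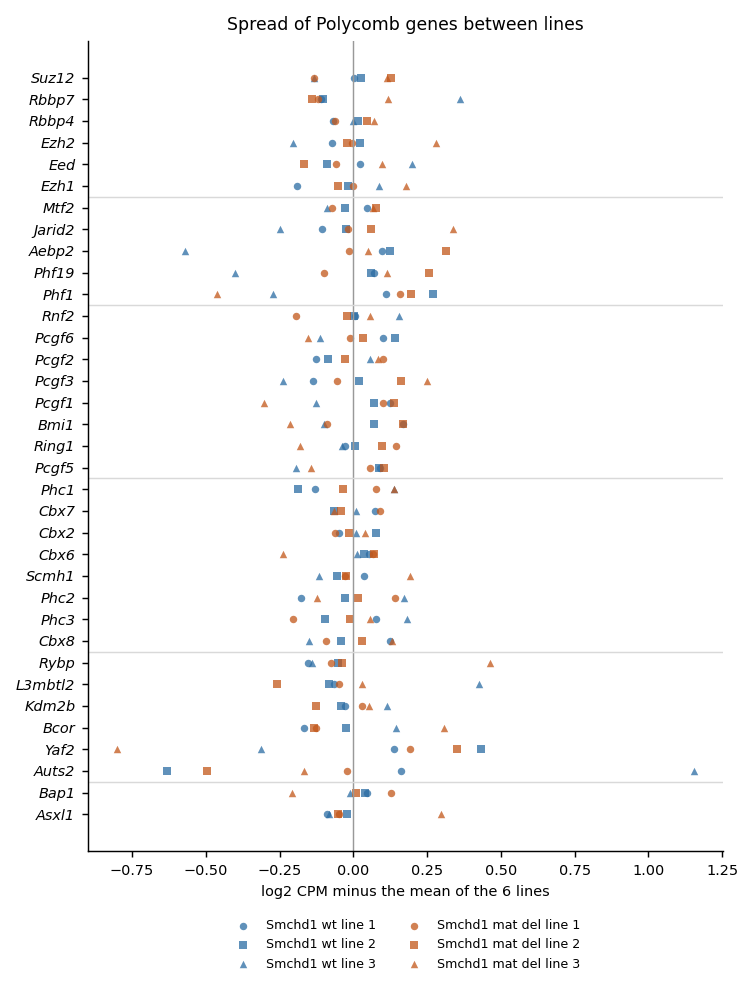
log2 CPM of each Polycomb gene in each line minus the mean of the 6 lines; blue marks are wt and orange marks mat del, with triangles for lines numbered 3. Triangles form the outer points for most genes, on the same side in both genotypes for Rbbp7, Phf1, Pcgf5, Bcor and Yaf2 and on opposite sides for Ezh2, Jarid2 and Pcgf3.

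The chromosomes that carry a member were little shifted as a whole. Over these 14 chromosomes, the median log2 deviation of a line from the 6-line mean ran from -0.095 to 0.060. The Y chromosome and the mitochondrial genome, which carry no member, moved more. The median deviation of Y was 0.340 in wt line 3 and -0.384 in mat del line 3. That of the mitochondrial genome was -0.238 in mat del line 2 and 0.298 in mat del line 3.

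Genes that work with the Polycomb complexes, from a separate list, were measured beside the members. Of 38 names, 36 were in the table and passed the filter, and 0 passed the test; 27 were higher and 9 lower in the mat del lines by sign, and the median of their log2 fold changes was 0.077. The CPM of 3 of the 36 did not overlap between genotypes, beside 9.38% of all genes tested. The summed level of the list was 5903 CPM in mat del line 3 and 4944 to 5114 CPM in the other 5 lines, and without mat del line 3 the split was 20 higher and 16 lower with a median of 0.0079. The most abundant were Skp1a and Wdr5, components of variant PRC1 assemblies, and the deacetylase Hdac1. Kdm6b, a demethylase that removes the PRC2 mark, measured 42.1, 50.4 and 34.99 CPM in the wt lines and 60.1, 50.8 and 57.5 CPM in the mat del lines, without overlap, a log2 fold change of 0.40 (95% interval 0.057 to 0.74; edgeR quasi-likelihood, unadjusted p = 0.0275, adjusted p = 0.992). Mbd6, a PR-DUB partner, measured 33.5, 36.3 and 27.5 CPM and 41.04, 40.01 and 43.2 CPM, also without overlap, with the log2 fold change at 0.35 (95% interval 0.058 to 0.64; edgeR quasi-likelihood, unadjusted p = 0.0246, adjusted p = 0.992). An antisense gene, Kdm6bos, lies within Kdm6b, and their reads could not be told apart if counting ignored strand. Without wt line 3 the unadjusted p of neither gene was under 0.05.

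Developmental regulators that Polycomb is known to silence, outside the Hox clusters, were low in all lines. Of 30 such genes 20 stayed under 1 CPM in every line and 18 passed the filter, and the summed level of the 30 was 40.3 to 52.3 CPM in the wt lines and 49.7 to 54.4 CPM in the mat del lines. By sign 16 of the 18 were higher in the mat del lines, and the median of their log2 fold changes was 0.31 beside -0.009 for all genes tested, and 0 passed the test (0 at an unadjusted p under 0.05). Their median was 0.12 over the 10 genes left by the stricter filter (10 or more counts per library throughout) and 0.35 over the 28 with any count. With each line left out in turn it ran from 0.14 (without wt line 1) to 0.42 (without wt line 2), and it was 0.16 without wt line 3. Without line 3 of both genotypes 22 targets were tested, 17 higher and 5 lower, with a median of 0.22. At that setting 2 of the 22 had an unadjusted p under 0.05 (edgeR quasi-likelihood), beside 4.72% of all genes tested. The replicate block gave 1 of 18, beside 730 of 17696 genes, and the fit without wt line 2 gave 1 of 16, beside 528 of 17150 genes. The most abundant were Eomes at 17.3, 19.6 and 17.3 CPM and 17.9, 14.02 and 25.3 CPM, T (Brachyury) at 7.82, 7.86 and 6.15 CPM and 8.91, 8.80 and 8.77 CPM, and Olig2 at 3.24, 5.12 and 3.80 CPM and 6.20, 4.26 and 2.98 CPM. Of the 18, 2 did not overlap between genotypes, beside 9.38% of all genes tested. They were T, with a log2 fold change of 0.28 (95% interval -0.089 to 0.65; edgeR quasi-likelihood, adjusted p = 0.992), and Irx3, named after its values were seen, with 3.13, 4.20 and 0.462 CPM against 4.60, 6.15 and 4.38 CPM and a log2 fold change of 0.95 (95% interval -0.46 to 2.35).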

How the data were processed

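PolyA RNA of 6 mESC lines in 2i + LIF was sequenced paired-end with TruSeq kits. Per the labels and the study's methods, the authors trimmed reads with Trim Galore 0.4.4, aligned them to GRCm38.p6 with HISAT2 2.0.5 and deposited raw counts per gene from SeqMonk; the strand setting of counting is not given in the sources used here. The deposited count table held 45 other per-sample count columns, which were not used, and deposited log2 RPKM files were not used. Total counts per line were 27526359 to 126716460, and each member had at least 17 counts in every line, 96 leaving out Auts2.

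Groups came from the labels, 3 lines each. Genes passing edgeR's filterByExpr (17696) were fitted with edgeR 4.0.16 (R 4.3.3), TMM scaling and the quasi-likelihood test, with Benjamini-Hochberg adjustment over all genes tested and a threshold of 0.05. Levels were CPM per kb of GENCODE vM21 exon union, which matched 99.9% of genes. Paralog ratios had 0.5 counts added. Promoters were taken from RefSeq (GRCm38.p6). The test was checked on simulated data with 200 changed genes per fold size. Alternatives were RLE and total count scaling, other count filters, DESeq2 1.42.0, edgeR's exact test, each line left out, a replicate block, other transcript lengths, and, chosen after seeing the data, line 3 of both genotypes left out and the paralog order tested over line numbers. Lines with the same number correlated in their deviations from group means (r = 0.345, 0.460 and 0.513 for numbers 1, 2 and 3 over 13929 genes). Among lines of different number, wt line 1 and mat del line 2 correlated at 0.507, and wt line 2 and mat del line 1 at 0.143. Line 3 of either genotype correlated negatively with lines 1 and 2 of the other (-0.307 to -0.606). The 3 deviations of a genotype sum to 0, so these values are not independent and do not settle whether numbers pair the lines. The labels give only the number.

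The 35 members and the other lists were chosen with earlier results of these data known. The genes named are all 35 members, Smchd1 and, from the list of associated genes and that of targets, up to 4 with an unadjusted p under 0.05 and the 3 with the highest level; marker genes, overlapping neighbours and genes called under an alternative are named beside the values they touch.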

Additional observations from a re-analysis of the deposited data

How the results depend on the processing

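With the fit of the report 0 genes were called, and 0 were also called under RLE or total count scaling, DESeq2, either other count filter, the replicate block or with any single line left out, while edgeR's exact test called 2 and leaving out line 3 of both genotypes, chosen after seeing the data, called 3; the cause was not tested. With 1 line left out the number called ranged from 0 to 0. The number of genes at an unadjusted p under 0.05 was 397, and became 730 with the replicate block, 870 without line 3 of both genotypes, and 231 to 639 with 1 line left out. The number of members called was 0 under every alternative. With line numbers as a replicate block 0 genes and 0 members were called, so the block changed no call. The sign of a member's log2 fold change turned under at least 1 alternative only where its size was at most 0.115, except for Auts2, and none of these values was called. It turned to -0.0032 for Pcgf5 under total count scaling and to -0.011 for Pcgf5 after subtraction of the chromosome median. Without line 3 of both genotypes it turned to -0.0098 for Suz12, -0.0061 for Mtf2, 0.028 for Pcgf1, -0.0075 for Pcgf5, 0.024 for Cbx6, 0.022 for Cbx7, -0.059 for Cbx8, -0.013 for Scmh1, -0.039 for Bcor, 0.080 for Auts2 and 0.027 for Bap1. With each line left out in turn the log2 fold change ranged over -0.20 to 0.064 for Rbbp7, -0.19 to 0.12 for Phf1, -0.0085 to 0.14 for Ring1, -0.098 to 0.097 for Pcgf1, -0.078 to 0.080 for Pcgf5, -0.053 to 0.010 for Cbx2, -0.11 to 0.034 for Cbx6, -0.056 to 0.031 for Cbx7, -0.017 to 0.13 for Cbx8, -0.049 to 0.12 for Phc2, -0.063 to 0.038 for Kdm2b, -0.32 to 0.15 for Yaf2, -0.12 to 0.13 for Bcor, -0.98 to 0.048 for Auts2 and -0.12 to 0.045 for Bap1. The order of paralog pairs could not turn with RLE scaling, which cancels within a line. Nor could it turn with any line left out or without line 3 of both genotypes, since all 31 pairs stood in the same order in all 6 lines. These settings are therefore no check of the order. The sign-flip test of paralog order passed 31 pairs over 6 lines. Over the 3 means of same-numbered lines, an alternative chosen after seeing the data, it passed 0. There 0.25 is the smallest p that the test can give, so no pair could pass. The direction of the mean log2 ratio turned for Rbbp7 over Rbbp4 with the longest transcript (-0.082). With the median transcript it turned to -0.29 for Rbbp7 over Rbbp4, -1.62 for Pcgf6 over Pcgf3, -1.96 for Pcgf2 over Pcgf3, -0.32 for Pcgf2 over Bmi1, -1.50 for Pcgf1 over Bmi1, -0.43 for Pcgf1 over Pcgf5 and -2.58 for Cbx2 over Cbx6, and with raw counts without length to -1.14 for Rbbp7 over Rbbp4, -0.0042 for Pcgf6 over Pcgf3, -0.89 for Pcgf2 over Pcgf3, -1.17 for Pcgf1 over Bmi1, -1.63 for Pcgf1 over Pcgf5, -0.46 for Bmi1 over Pcgf5, -1.04 for Cbx2 over Cbx6 and -0.78 for Phc2 over Phc3; division by another length shifts a ratio by construction. The median absolute genotype difference in ratios was 0.082 to 0.146 with 1 line left out and 0.12 with no count added. Depth limited Auts2 most, with as few as 17 counts in a line.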
